A study of Mus musculus with 6 samples.

Results

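The expression of 8 genes of vomeronasal and heterotrimeric G protein signalling was followed in the olfactory epithelium of newborn mice. They are the channel gene Trpc2, the G protein alpha subunit genes Gnao1, Gnai2, Gnai1, Gnai3, Gnaq and Gna11, and the gamma subunit gene Gng8. Members were all probe sets that the platform annotation assigns to 1 gene symbol only, that symbol being one of the 8. This gave 22 probe sets for 8 genes, of 34945 such probe sets and 18193 genes on the array. The comparison was between 3 mutant pups and 3 wild-type pups, each aged 1 day and with 1 array of olfactory epithelium. Mutant and wild-type pups shared 1 genetic background, a mix of C57Black6/J with 129SvJ. The labels do not name the mutated gene or allele. The series title asks for targets of KLF7, a DNA-binding protein of the Krüppel-like family that neurons express, so Klf7 itself served as the check of the labels.

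A heterotrimeric G protein couples a receptor in the membrane to enzymes and channels inside the cell. Its alpha subunit binds GTP on activation and separates from the beta and gamma subunits, and both parts then act on effectors. Sensory neurons of the vomeronasal organ, which detect pheromones and related cues, use Gnai2 in the apical layer with V1R receptors and Gnao1 in the basal layer with V2R receptors, and their signal ends in the cation channel TRPC2. Most sensory neurons of the main olfactory epithelium use instead the alpha subunit encoded by Gnal, with Gng13 as gamma subunit, adenylyl cyclase and a cyclic nucleotide-gated channel. Gng8 is expressed in immature olfactory neurons and in vomeronasal neurons. Gnai1 and Gnai3 encode the other inhibitory alpha subunits, and Gnaq and Gna11 the alpha subunits that activate phospholipase C beta.

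None of the 8 genes separated mutant from wild-type pups. Of the kept probe sets, 1 a gene and the brightest on average, 5 had a lower mean in mutant epithelium (Gnao1, Gnai2, Gng8, Trpc2 and Gnai1) and 3 a higher one (Gna11, Gnaq and Gnai3). The log2 differences, mutant minus wild type, ran in size between 0.06 and 0.47, and the 3 mutant and 3 wild-type values overlapped for every gene. limma called 0 of the 8 at an adjusted p under 0.05 and 0 at an unadjusted p under 0.05. Across the 12703 genes tested it called 0 (0%), and 76 (0.598%) had an unadjusted p under 0.05, 0.441% lower and 0.157% higher in the mutant. No overlap between the groups was found for 0 of the 8 genes, against 2.86% of all genes tested (1.95% lower and 0.905% higher in the mutant). The median difference was -0.13 over the 8 genes and -0.02 over all genes.

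The largest difference among the libraries did not follow the groups. Total intensity per array was between 10064207 and 14439788, and the first principal component of the tested genes, with 50.2% of their variance, set the arrays numbered 3 of both groups (49.5 in mutant, 98.2 in wild type) apart from the other 4 (-42.4 to -32.3). Many of the differences below were therefore also computed without both arrays numbered 3. Klf7 was lower on its 4 probe sets, with no overlap between groups on any of them (1.62% of all probe sets were lower without overlap) and log2 differences, mutant minus wild type, of -3.06 (SE 0.489), -2.15 (SE 0.548), -2.23 (SE 0.742) and -2.28 (SE 0.799), the last 2 with mutant array 3 at the floor of 3.65. The labels and the Klf7 level thus ran the same way on all 6 arrays, although no Klf7 probe set passed adjustment over all 34945 probe sets (limma, adjusted p = 1). Of the olfactory neuron markers that define the tissue, 11 of 11 mature ones and 12 of 12 immature ones on the array were above the dim level, and none was at 0 on all arrays. The summed intensity of the mature markers was 4573 to 5867 on mutant arrays and 7865 to 10038 on wild-type arrays, and that of the immature markers 16192 to 17762 on mutant arrays and 17593 to 20454 on wild-type arrays. Of the 11 mature markers, 10 had a lower mean in mutant and Adcy3 had a higher one. Omp, Cnga2, Adcy3, Gnal, Gng13, Stoml3 and Cnga4 among them also belong to the odorant cascade described below, so the 2 are not independent. In a dissected tissue, fewer cells of a type and less RNA per cell cannot be told apart.

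**Figure D1:**
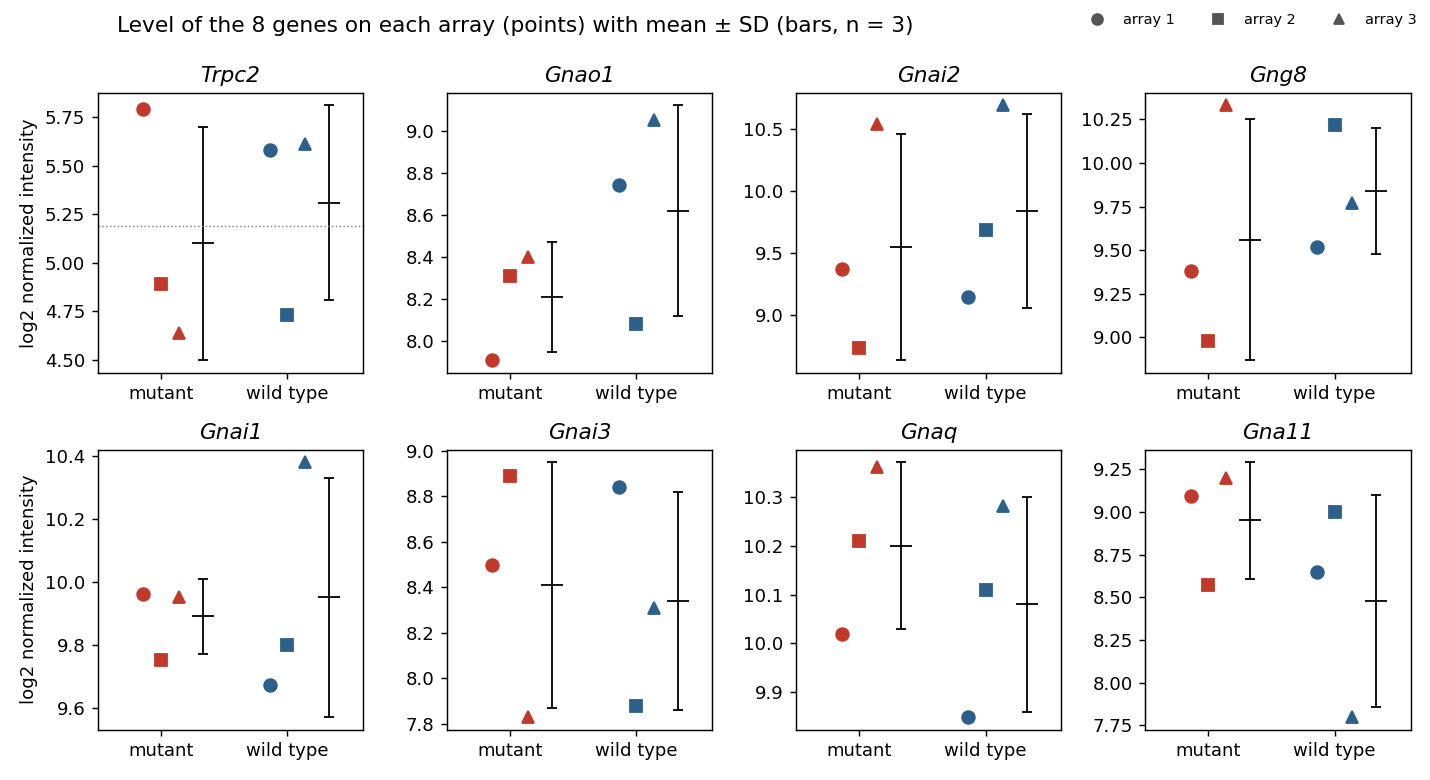
Level of each gene on its kept probe set, as log2 normalized intensity (vertical axes differ between panels and do not start at 0), for 3 mutant arrays (left, red) and 3 wild-type arrays (right, blue); symbols give the array number and bars the mean ± SD. The dotted line in the Trpc2 panel is the dim level of 5.19. In each panel the 2 groups overlap.

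Trpc2, the transduction channel of vomeronasal neurons, lay close to the dim level. On the log2 scale its kept probe set read 5.79, 4.89 and 4.64 on mutant arrays 1, 2 and 3, against 5.58, 4.73 and 5.61 on wild-type arrays 1, 2 and 3. The dim level, below which genes were not tested, was 5.19, so 1 mutant and 2 wild-type arrays were above it. The mean was 5.10 ± 0.60 in mutant and 5.31 ± 0.50 in wild type (SD, n = 3 each), a difference of -0.21 (SE 0.77, 95% interval -1.90 to 1.49; limma, adjusted p = 1). That interval spans ratios of mutant over wild type between 0.268 and 2.80, so neither a severalfold fall nor a severalfold rise of Trpc2 could be told from no change at this signal. Without both arrays numbered 3 the difference was 0.19 (SE 0.936). The second Trpc2 probe set was below the dim level, with a mean of 4.66 ± 0.88 in mutant and 4.51 ± 0.39 in wild type (SD, n = 3 each). A further 2 probe sets carry Trpc2 together with another symbol and were left out by the rule.

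The receptors that work with these proteins in the vomeronasal organ gave little signal. Of 36 genes of the V1R and V2R receptor families and their companions with a probe set, 10 had a mean above the dim level, and the median level of the 36 was 4.26 on the log2 scale. limma called 0 of the 10 at an adjusted p under 0.05 and 0 at an unadjusted p under 0.05, with 5 differences below 0 and a median of 0.11. The V2R receptor gene Vmn2r26 had a mean of 6.08 ± 0.39 in mutant and 5.19 ± 0.76 in wild type (SD, n = 3 each), a difference of 0.89 (SE 0.719). The V1R receptor genes Vmn1r65 and Vmn1r51 differed by 0.73 (SE 0.6) and 1.08 (SE 1.05), the second with 1 wild-type array at the floor. These values rest on single arrays: Vmn1r65 ran from 0.04 (mutant array 3 left out) to 1.41 (mutant array 1 left out), and Vmn1r51 from 0.39 (wild-type array 1 left out) to 2.04 (wild-type array 2 left out). With neither array numbered 3, Vmn1r65 differed by -0.02 and Vmn1r51 by 1.59. Vmn2r1, a V2R co-receptor gene, read 7.11, 7.92 and 4.37 on mutant arrays 1, 2 and 3 and 5.04, 8.52 and 5.18 on wild-type arrays 1, 2 and 3, so the highest value of each group was on its array 2. Of 8 marker genes of vomeronasal neurons, among them Trpc2, Gnao1 and Gnai2 themselves, 7 were on the array and all 7 had a mean above the dim level, with a summed intensity of 7673 to 8493 on mutant arrays and 6854 to 8264 on wild-type arrays. That sum mostly followed Ano1, at 11.48 to 12.01 on the log2 scale, and Bcl11b, at 11.09 to 11.64. Trpc2, at 4.64 to 5.79, added little to it. Of the 7 markers, 3 had a lower mean in mutant, and the median difference was 0.11. Tfap2e read 8.43, 7.38 and 7.66 on mutant arrays 1, 2 and 3. On wild-type arrays 1, 2 and 3 it read 3.65, the floor, 8.09 and 6.07. Trpc2 was thus just inside the tested range and most receptors were below it, and the other members are described below as G protein subunits.

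Gnao1 encodes the alpha subunit of Go, abundant in neurons, and had the second largest difference of the 8 genes. It read 7.91, 8.31 and 8.40 on mutant arrays 1, 2 and 3, against 8.74, 8.08 and 9.05 on wild-type arrays 1, 2 and 3. Wild-type array 2 lay among the mutant arrays, and the other 2 wild-type arrays lay above all of them. The mean was 8.21 ± 0.26 in mutant and 8.62 ± 0.50 in wild type (SD, n = 3 each), a difference of -0.42 (SE 0.395, 95% interval -1.29 to 0.45), or a ratio of 0.749 with bounds of 0.41 and 1.37 (limma, adjusted p = 1; exact two-sided permutation p = 0.3, where 3 against 3 cannot give less than 0.1). The difference was -0.69 when wild-type array 2 was left out, -0.21 when wild-type array 3 was, and -0.31 when both arrays numbered 3 were. A second Gnao1 probe set went the other way, with a difference of 0.15 (SE 0.578), and across the 6 arrays the pair correlated at -0.22 (Pearson's r). With the mean of all Gnao1 probe sets in place of the brightest the difference was -0.09. The last one, 1460383_at, was at the floor on all 6 arrays and carries no measurement. It nevertheless entered that mean, with a difference of 0. The summed mature neuron markers named above were lower on every mutant array than on any wild-type array, and their part in the Gnao1 values was not tested. Summed markers of the central nervous system, where Gnao1 is also abundant, were 917 to 1195 on mutant arrays and 580 to 1236 on wild-type arrays, so these overlapped. Only 5 of these 11 markers had a mean above the dim level, and the brightest was Mbp, at 8.11 to 9.13 on the log2 scale. The part of such cells in the Gnao1 values was not tested either.

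Gng8, the gamma subunit gene of immature olfactory and of vomeronasal neurons, had 1 probe set. Its levels were 9.38, 8.98 and 10.33 on mutant arrays 1, 2 and 3, against 9.52, 10.22 and 9.77 on wild-type arrays 1, 2 and 3. Mutant arrays 1 and 2 were below all wild-type arrays, while mutant array 3 was the highest of the 6. The mean was 9.56 ± 0.69 in mutant and 9.84 ± 0.36 in wild type (SD, n = 3 each), a difference of -0.27 (SE 0.369, 95% interval -1.08 to 0.54; limma, adjusted p = 1). Without mutant array 3 it was -0.65, without mutant array 2 it was 0.02, and without both arrays numbered 3 it was -0.69 (SE 0.354, adjusted p = 1), so the size of this difference rests on single libraries.

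The 3 inhibitory alpha subunits of the Gi class had differences of -0.30 (Gnai2), -0.06 (Gnai1) and 0.06 (Gnai3), and none passed the test. Gnai2, which vomeronasal neurons of the apical layer use and which leukocytes also express strongly, read 9.37, 8.74 and 10.54 on mutant arrays 1, 2 and 3, against 9.15, 9.69 and 10.69 on wild-type arrays 1, 2 and 3. Array 3 was the highest of each group. The difference was -0.30 (SE 0.488, 95% interval -1.37 to 0.78), with 0.11 when mutant array 2, -0.79 when mutant array 3, -0.63 when wild-type array 1 and 0.13 when wild-type array 3 was left out. Its second probe set differed by -0.03 (SE 0.363), and the pair correlated at 0.81 across the 6 arrays. Summed macrophage and leukocyte markers were 3562, 2305 and 6067 on mutant arrays 1, 2 and 3 and 2210, 4845 and 4242 on wild-type arrays 1, 2 and 3. Mutant arrays had the same order by these markers as by Gnai2. In wild type array 1 was the lowest by both, but array 2 was the highest by the markers and array 3 by Gnai2. The part of leukocytes in the Gnai2 values was not tested.

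Gnai1, an inhibitory alpha subunit gene of neurons and other cells, varied least among the mutant arrays. It read 9.96, 9.75 and 9.95 on mutant arrays 1, 2 and 3, against 9.67, 9.80 and 10.38 on wild-type arrays 1, 2 and 3, with all mutant values inside the wild-type range. Its difference was -0.06 (SE 0.275, 95% interval -0.67 to 0.54), a ratio of 0.957 with bounds of 0.63 and 1.46, and it was 0.12 with neither array numbered 3. A second probe set differed by 0.06 (SE 0.281) and a dimmer one, 1427510_at, by -0.59 (SE 0.644). The dimmer one read 5.25 on mutant array 3 and 7.22 on wild-type array 3, and leaving out both of these turned its difference to 0.10. The 3 probe sets correlated pairwise at 0.47 to 0.71.

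Gnai3, the most broadly expressed of the inhibitory class, read 8.50, 8.89 and 7.83 on mutant arrays 1, 2 and 3, against 8.84, 7.88 and 8.31 on wild-type arrays 1, 2 and 3. The groups had nearly the same range, and the difference was 0.06 (SE 0.429, 95% interval -0.88 to 1.00). It was 0.34 with neither array numbered 3, 0.38 with the mean of the probe sets, and -0.19 to 0.35 when 1 array was left out. Its second probe set read 7.79, 7.27 and 9.04 on mutant arrays and 7.72, 7.26 and 7.02 on wild-type arrays, so arrays 1 and 2 were alike in both groups and array 3 was not. Its difference of 0.70 (SE 0.509; limma, adjusted p = 1 over all probe sets) was 0.05 without both arrays numbered 3. The 2 probe sets correlated at -0.40 across the arrays. The second carries the suffix x_at, which the array's maker gives to probe sets with probes that can match other transcripts.

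Gnaq and Gna11, the alpha subunit genes of the phospholipase C branch, both had a higher mean in the mutant. Gnaq read 10.02, 10.21 and 10.36 on mutant arrays 1, 2 and 3, against 9.85, 10.11 and 10.28 on wild-type arrays 1, 2 and 3, also on an x_at probe set. Within each pair of arrays with the same number the mutant was higher, by 0.17, 0.11 and 0.08. On the kept probe sets Gnaq was the only one of the 8 genes with 1 sign in all pairs. The share of all genes with 1 sign was not computed. The difference was 0.12 (SE 0.245, 95% interval -0.42 to 0.66; adjusted p = 1 by limma, also with the replicate number as a block), a ratio of 1.09 with bounds of 0.747 and 1.58. Of its 7 probe sets, 6 were above the dim level; 4 of these had a difference above 0 and 2 below 0, between -0.03 and 0.23, and their pairwise correlations ran from -0.73 to 0.83. Above the dim level, each Gnaq probe set other than the kept one had both signs over the same-numbered pairs, such as 0.38, -0.12 and -0.31 for 1428939_s_at. Probe sets of this 1 gene thus ordered the arrays in different ways.

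Gna11 had the largest difference of the 8 genes. It read 9.09, 8.57 and 9.20 on mutant arrays 1, 2 and 3, against 8.65, 9.0 and 7.80 on wild-type arrays 1, 2 and 3. Wild-type array 3 stood well below the other 5. The mean was 8.95 ± 0.34 in mutant and 8.48 ± 0.62 in wild type (SD, n = 3 each), a difference of 0.47 (SE 0.402, 95% interval -0.41 to 1.36), or a ratio of 1.39 with bounds of 0.75 and 2.56 (limma, adjusted p = 1). The difference came to 0.13 once wild-type array 3 was left out, and to 0.01 once mutant array 3 was left out as well, so the size of the difference came from that pair of libraries. Its other probe set was below the dim level, at 4.98 ± 1.27 in mutant and 4.76 ± 0.63 in wild type (SD, n = 3 each).

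**Figure D2:**
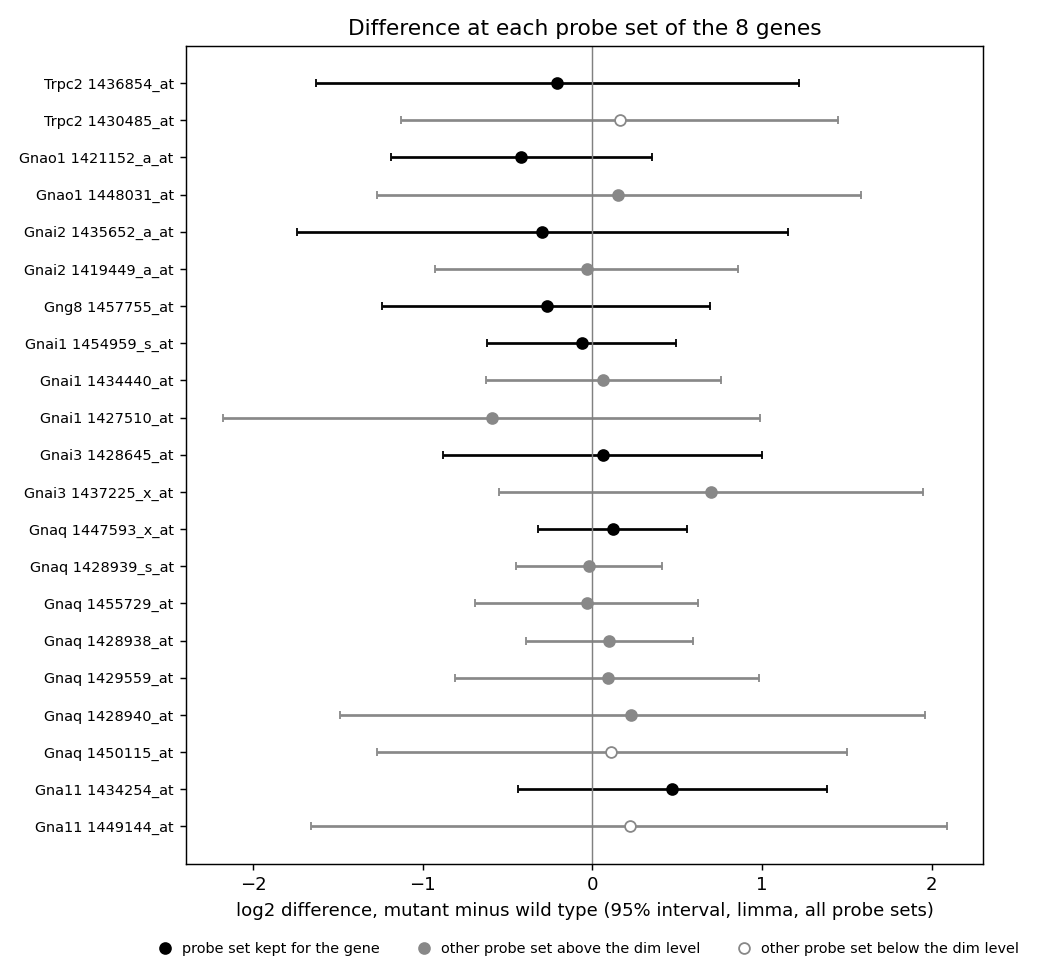
Log2 difference, mutant minus wild type, with its 95% interval from a limma fit of all 34945 single-symbol probe sets, for the 21 member probe sets that were above the floor on at least 1 array. Filled black points are the probe sets kept for each gene, grey points the others, and open points those below the dim level. Every interval holds 0.

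Of the 22 probe sets, 18 were above the dim level and 4 below it. A total of 12 had a higher mean in mutant and 9 a lower one, and 1 was at the floor throughout. In the fit of all probe sets limma called 0 of the 22 (0% of all probe sets) and 0 had an unadjusted p under 0.05, against 1.08% of all. The groups overlapped for all 22, where 2.75% of all probe sets had no overlap. For 3 genes (Gnao1, Gnai1 and Gnaq), probe sets above the dim level had differences of opposite sign, and for Gnai2 and Gnai3 they did not. Trpc2, Gng8 and Gna11 had only 1 probe set above the dim level, so no such disagreement could be seen.

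**Figure D3:**
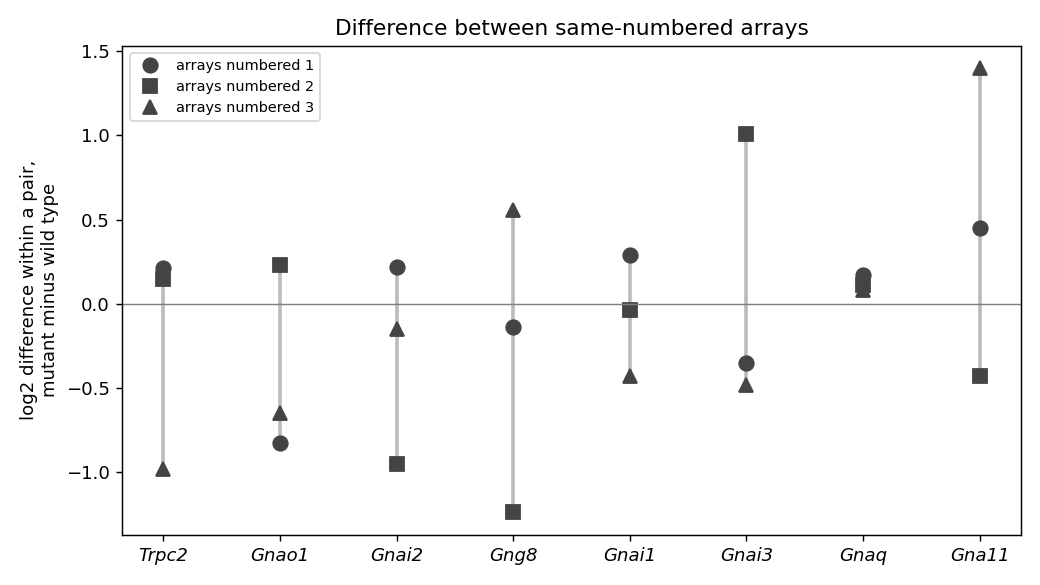
Log2 difference, mutant minus wild type, between the arrays that carry the same replicate number, for each gene on its kept probe set; grey lines join the 3 values. Gnaq lies between 0.08 and 0.17, and the other 7 genes have differences on both sides of 0.

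The differences within same-numbered arrays were -0.83, 0.23 and -0.65 for Gnao1 in pairs 1, 2 and 3, and -0.14, -1.24 and 0.56 for Gng8. For Gna11 they were 0.45, -0.43 and 1.40, and for Gnai3 -0.35, 1.01 and -0.48. Pair 2 therefore stood against pairs 1 and 3 for Gnao1, Gna11 and Gnai3. For Trpc2 (0.21, 0.15 and -0.98) pair 3 stood alone, and Gnai2 (0.22, -0.95 and -0.15) was higher in the mutant in pair 1 only.

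Among the 28 pairs of genes, levels over the 6 arrays correlated between -0.94 (Gng8 with Gnai3) and 0.78 (Gnai2 with Gnai1), as a description of 6 libraries that share their processing. Gnai2 followed Gng8 at 0.75, and Gnao1 ran against Gna11 at -0.81. The genes thus had no common pattern over the arrays. Of all other genes tested, those with the most similar levels over the 6 arrays were Fpr2, a formyl peptide receptor, and the vesicle protein gene Vamp2 for Trpc2 (Pearson's r 0.991 and 0.99). For Gnao1 they were Smim10l1 and Tex52 (0.987 and 0.984), for Gnai2 Tmem50b and Rac2 (0.998 and 0.997), and for Gng8 Fads3 and Epn2 (0.996 and 0.995). For Gnai1 they were the noncoding RNA gene Rian and the beta subunit gene Gnb4 (0.992 and 0.99), and for Gnai3 Ttc39b and the ubiquitin ligase gene Rnf111 (0.995 and 0.99). For Gnaq they were Tor3a and the adenylate kinase gene Ak7 (0.997 and 0.991), and for Gna11 the cell adhesion gene Hepacam and the apoptosis gene Hrk (0.999 and 0.996). With 12703 genes over 6 arrays, values this high arise for most patterns and are given as a description.

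The question behind the comparison was which genes KLF7 may control, so the bases before the transcript start were searched for CACCC, the core of the box that Krüppel-like factors bind, on both strands (GGGTG on the other strand). RefSeq's promoter table (GRCm38.p6) held 7 of the 8 genes, all but Gnai2. In the 250 bases before the start, CACCC occurred in Trpc2 (2 times), Gnao1 (3 times) and Gng8 (3 times, 1 of them in the stretch printed here), and in none of Gnai1, Gnai3, Gnaq and Gna11. Of all 32851 windows of this length in the table, 52% held it, so 3 of 7 is an ordinary share. The GC box GGGCGG, which Krüppel-like and Sp factors also bind, was searched on both strands too. It occurred in Gnai1 (3 times), Gnaq (4 times), Gna11 (2 times) and Gng8 (1 time), and in 32.7% of all windows. The GC content of these windows was 79.2% (Gnai1), 79.2% (Gnaq), 73.2% (Gna11) and 56.0% (Gng8). The median over all windows was 52.4%. Windows without the GC box had 76.4% (Gnao1), 59.6% (Gnai3) and 50.8% (Trpc2). The part of GC content in the share with a GC box was not tested. No match of one motif overlapped a match of the other. For Gnao1 the whole window, and for Gng8 its last 49 bases, lay inside the annotated extent of the gene. The Gng8 matches that are not printed lay 50 to 46 and 23 to 19 bases before the start, across the edge of that extent and inside it. The 3 windows shown are those of the channel and the gamma subunit, which hold CACCC, and that of the gene with the largest difference, which does not. Capitals mark CACCC or GGGTG in Trpc2 (chr7:102082866-102083115, plus strand) and in Gng8 (chr7:16891536-16891736, plus strand, the 201 bases before the annotated gene), and CCGCCC, the GC box as read on the other strand, in Gna11 (chr10:81545163-81545412, minus strand).
Trpc2: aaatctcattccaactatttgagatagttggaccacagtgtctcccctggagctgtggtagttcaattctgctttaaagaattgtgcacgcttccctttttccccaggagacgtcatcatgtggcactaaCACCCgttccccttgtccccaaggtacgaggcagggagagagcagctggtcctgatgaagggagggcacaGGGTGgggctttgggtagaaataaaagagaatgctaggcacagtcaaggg
Gng8: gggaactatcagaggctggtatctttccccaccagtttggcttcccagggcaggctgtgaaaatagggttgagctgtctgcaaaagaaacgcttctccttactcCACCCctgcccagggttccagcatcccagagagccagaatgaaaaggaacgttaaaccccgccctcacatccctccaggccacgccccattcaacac
Gna11: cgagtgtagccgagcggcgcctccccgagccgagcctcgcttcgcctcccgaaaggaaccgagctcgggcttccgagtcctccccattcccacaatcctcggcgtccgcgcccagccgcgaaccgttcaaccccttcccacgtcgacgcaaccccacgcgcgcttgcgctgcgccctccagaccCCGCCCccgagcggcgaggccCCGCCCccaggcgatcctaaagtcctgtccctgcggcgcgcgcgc
A match is a run of letters and not a measured binding site. Trpc2, Gnao1 and Gng8, the 3 genes with CACCC in the window, had differences of -0.21, -0.42 and -0.27, and Gnai1, Gnai3, Gnaq and Gna11 had -0.06, 0.06, 0.12 and 0.47. Gnai2, which had no window, had a difference of -0.30. Trpc2 differed by 0.19 with neither array numbered 3, and Gng8 by 0.02 without mutant array 2. None of these differences passed the test, and a relation between motif and difference was not tested.

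The other genes of G protein signalling were read from lists of subunits, regulators, effectors, channels and receptors. Together with the odorant cascade they held 84 tested genes beside the 8. limma called 0 of these 84 at an adjusted p under 0.05; 5 (5.95%) had an unadjusted p under 0.05, against 0.598% of all genes. These 5, all lower in the mutant, were Gnal, Gng13, Cnga2, Stoml3 and Cacna1b, and 4 of them belong to the odorant cascade of mature olfactory neurons, a cascade already known to be lower on these arrays when the lists were drawn up, so its count is no independent support. Groups did not overlap for 8 of the 84 (9.52%, against 2.86% of all genes), 7 of them lower in the mutant and Kalrn higher. Gnal, Gng13, Cnga2, Pde1c and Stoml3 among these 8 belong to the same odorant cascade, so this count is no independent support either.

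Other alpha subunits had 7 tested genes, 4 of them with a difference below 0 and a median of -0.06. Gnal, the olfactory alpha subunit, averaged 9.35 ± 0.22 in mutant and 10.27 ± 0.08 in wild type (SD, n = 3 each), a difference of -0.92 (SE 0.257; limma, adjusted p = 1), or -0.55 with the mean of its probe sets. Gna14 and Gna15, of the same class as Gnaq, differed by 0.59 (SE 0.408) and 0.68 (SE 0.604), and Gna15 by 0.08 with neither array numbered 3. Beta subunits had 4 of 4 tested differences below 0, with a median of -0.21 and 0 at an unadjusted p under 0.05. Gnb1, the beta subunit of many cells, averaged 12.54 ± 0.16 in mutant and 12.63 ± 0.20 in wild type, a difference of -0.09 that was 0.29 with the mean of its probe sets. Gnb4 and Gnb5 differed by -0.17 (SE 0.306) and -0.71 (SE 1.06), the second with 2 arrays at the floor; with neither array numbered 3 they differed by 0.08 and -1.10.

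Other gamma subunits had 8 tested genes, 3 with a difference below 0 and a median of 0.12. Gng13, the olfactory gamma subunit, averaged 9.74 ± 0.20 in mutant and 10.56 ± 0.39 in wild type (SD, n = 3 each), a difference of -0.82 (SE 0.272; limma, adjusted p = 1) that was -0.25 with the mean of its probe sets. Gng3, a gamma subunit of neurons, differed by -0.82 (SE 0.584), and Gng11 by 1.08 (SE 0.558). Leaving out 1 array gave -1.34 (wild-type array 3) to -0.45 (mutant array 2) for Gng3 and 0.53 (wild-type array 3) to 1.62 (wild-type array 2) for Gng11. With neither array numbered 3 they differed by -1.48 and 0.18. Regulators, mainly RGS proteins, which speed GTP hydrolysis by alpha subunits, had 15 of 21 differences below 0 and a median of -0.15, with 0 at an unadjusted p under 0.05 by limma and 0 called. Rgs7, a partner of Go in neurons, differed by -0.83 (SE 0.602), Rgs2 by -0.48 (SE 0.372) and Rgs12 by 0.66 (SE 0.524). With the mean of probe sets Rgs2 differed by -0.07 and Rgs12 by 0.03, and with neither array numbered 3 Rgs12 differed by 1.30. Of all genes tested, 52.6% had a difference below 0.

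Effectors of Gi, Go and Gq had 8 of 23 differences below 0 and a median of 0.07. Cacna1b, the N-type calcium channel that beta and gamma subunits inhibit, averaged 6.21 ± 0.81 in mutant and 7.92 ± 0.43 in wild type (SD, n = 3 each), a difference of -1.71 (SE 0.573; limma, adjusted p = 1), with no overlap, and by -1.04 with neither array numbered 3. Kalrn differed by 0.47 (SE 0.262; -0.22 with the mean of its probe sets, 0.19 with neither array numbered 3), and Kcnj3, a potassium channel opened by beta and gamma subunits, by 0.62 (SE 0.479). Of other TRPC channels 2 were tested, Trpc4 with 0.71 (SE 0.84) and Trpc1 with -0.13 (SE 0.528), or 0.01 with neither array numbered 3. limma called 0 in each of these lists.

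**Figure D4:**
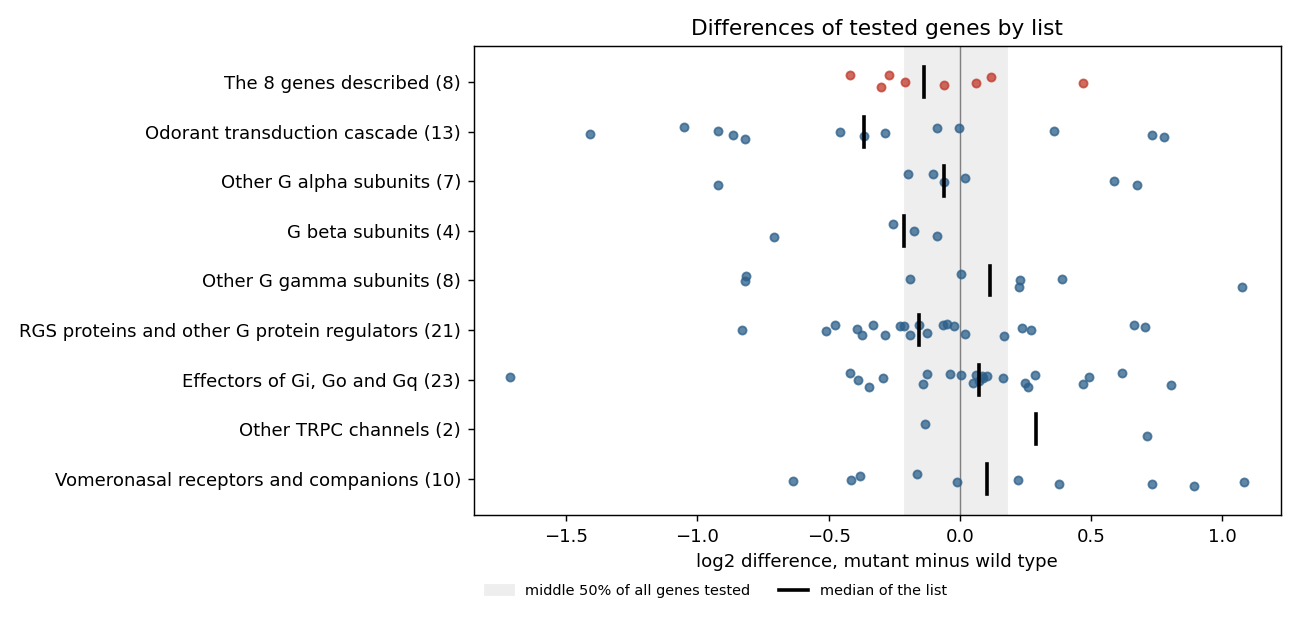
Log2 difference, mutant minus wild type, of the tested genes in each list (1 point a gene, number tested in brackets), with the list's median as a black bar and the middle 50% of all genes (-0.21 to 0.18) in grey. The 8 genes (red, top row) lie between -0.42 and 0.47; the odorant cascade below them has 10 of 13 differences below 0.

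The odorant cascade is the nearest comparison, since main olfactory neurons signal through it. Its 13 tested genes had a median difference of -0.36 with 10 below 0, beside -0.13 and 5 of 8 for the G protein and vomeronasal genes. In addition to Gnal and Gng13, the stomatin-like ciliary protein gene Stoml3 differed by -0.86 (SE 0.238), the channel gene Cnga2 by -1.41 (SE 0.513) and the phosphodiesterase gene Pde1c by -0.46 (SE 0.271), all with no overlap between the groups. Without the pair numbered 3 Gnal differed by -0.99 and Stoml3 by -0.96. Beside the 10 cascade genes below 0, Adcy3 (0.358), Cngb1 (0.732) and Pde4a (0.778) had a higher mean in mutant. Whether the 8 genes differed from the cascade was not tested.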

How the data were processed

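The authors deposited linear intensities, 45037 probe sets by 6 arrays; groups and replicate numbers come from the titles. The sources used here do not give their probe summary, background correction or scaling; per the labels, RNA was amplified into biotin-labelled cDNA. Array quartiles differed by 0.54 to 0.69 on the log2 scale, so arrays were quantile normalized, lower values set to the 20th percentile (intensity 12.56, the floor) and log2 taken. Fold changes near the floor are understated. Genes came from the platform annotation: 34945 probe sets had 1 symbol, 932 several and 9160 none. The RefSeq gene table (GRCm38.p6) matched 8 of 8 members and changed 0 symbols. Of each gene's single-symbol probe sets the one with the highest mean was kept, and genes in the lowest 40% (below 5.19) were left out as dim, leaving 12703. Levels of different genes were not tested against each other, since probes differ in response. Sums over markers give most weight to the genes with the brightest probe sets.

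limma 3.58.1 in R 4.3.3 compared mutant and wild type (intensity trend, two-sided, Benjamini-Hochberg over all genes, threshold 0.05); all probe sets with 1 symbol were fitted alike without the dim filter. The fit was tested on simulated data with independent noise on each array. That test does not cover deviations shared by same-numbered arrays, which these data have. Named were the 8 members, Klf7, and of each list the 3 tested genes with smallest p. For each member the 2 genes with the highest correlation were also named, clone names skipped. Cnga2, Pde1c, Vmn2r1 and Tfap2e were chosen after their values were seen. Members and lists were chosen with earlier results of these data known. Deviations from the group mean correlated at 0.47, 0.18 and 0.56 between same-numbered arrays, so the numbers, which come from the titles, were taken to pair the arrays; the labels do not say what they share. The labels call replicates biological, without saying whether pups shared litters. Their number, 3 a group, limits the precision. Alternatives changed the normalization, floor, dim filter, variance model, array weights, probe set choice, threshold, block and arrays used. The mean of probe sets took in every single-symbol probe set of a gene, also those below the dim level or at the floor. Motifs were searched with Python 3.11.15.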

Additional observations from a re-analysis of the deposited data

How the results depend on the processing

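Across 18 alternatives limma called 0 of the members, 0 of the listed genes and 0 of all genes at the threshold, with 0 of the members at an unadjusted p under 0.05; it called 0 of the members' probe sets in the 15 that were run on probe sets. Trpc2 was not tested, as dim, in 6 of them. A floor at the 5th percentile was not run, because that percentile is an intensity of 0; a floor at the 10th percentile, chosen after seeing the data, replaced it. With the replicate number as a block no call changed, and 157 of all genes, against 76, had an unadjusted p under 0.05. That count was 43 with array medians set equal, 50 with no normalization, 191 with no dim filter, 131 with array weights, 120 without both arrays numbered 3, and 67 to 212 when 1 array was left out (212 for wild-type array 2 and 132 for wild-type array 3). The number of members with a lower mean, 5, was 3 without both arrays numbered 3 and 2 to 6 when 1 array was left out. The number of members whose groups did not overlap was 0 to 1 when 1 array was left out (Gna11 without mutant array 2, Gng8 without mutant array 3, Gnao1 without wild-type array 2) and 1 (Gng8) without both arrays numbered 3.

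Directions held in 670 of 728 recomputed differences and turned in 58, none of them called. The cause was not tested. These differences include those of Klf7 and of the listed genes beside the members. Changing the block, the intensity trend, the threshold or the dim filter leaves each difference as it was. Directions could not turn under those alternatives, so the 670 overstate how well directions held. Without both arrays numbered 3 the turned values were Trpc2 0.19, Gnai1 0.12, Gnb4 0.08, Trpc1 0.01 and Vmn1r65 -0.02, and for probe sets Gnao1 1448031_at -0.23, Gnai1 1427510_at 0.10, Gnaq 1428939_s_at 0.12 and Gnaq 1455729_at 0.32. With array weights they were Trpc2 0.04, Gnai1 0.12, Gnai3 -0.01 and Gnb4 0.08, and for probe sets Gnao1 1448031_at -0.05, Gnai2 1419449_a_at 0.18, Gnaq 1428939_s_at 0.10 and Gnaq 1455729_at 0.09. With no normalization they were Gnai1 0.03, Gnai2 1419449_a_at 0.09, Gnaq 1428939_s_at 0.07 and Gnaq 1455729_at 0.05, with array medians set equal Gnai2 1419449_a_at 0.04 and Gnaq 1428939_s_at 0.01, and with the mean of probe sets Gnb1 0.29 and Kalrn -0.22.

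When 1 array was left out, differences ran from -0.50 to 0.03 for Trpc2, -0.79 to 0.13 for Gnai2, -0.65 to 0.02 for Gng8, -0.20 to 0.16 for Gnai1, -0.19 to 0.35 for Gnai3, -0.16 to 0.03 for Gnb1, -0.36 to 0.14 for Gnb4 and -0.43 to 0.36 for Trpc1. For probe sets they ran from -0.14 to 0.49 for Gnao1 1448031_at, -0.23 to 0.28 for Gnai2 1419449_a_at, -0.15 to 0.27 for Gnai1 1434440_at and -0.10 to 0.66 for Trpc2 1430485_at. For Gnaq they ran from -0.15 to 0.05 for 1428939_s_at, -0.21 to 0.18 for 1455729_at, -0.01 to 0.25 for 1428938_at, -0.14 to 0.41 for 1429559_at and -0.16 to 0.91 for 1428940_at. Gnao1, Gnaq and Gna11 did not turn under the alternatives run, although Gnaq came to 0 without wild-type array 1 and Gna11 to 0.01 without both arrays numbered 3.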
